A study of Rattus norvegicus with 304 samples.

Results

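Psmb4, Pomp, Derl1 and Ern1 are the genes of proteasome assembly and of protein quality control in the endoplasmic reticulum (ER) on a real-time PCR panel of rat liver, and they were chosen by name, 4 of the 50 targets measured in all. Livers came from male Long-Evans (TCDD-sensitive, per the labels) and Han/Wistar (TCDD-resistant) rats aged 10 to 12 weeks, given TCDD or the corn oil vehicle by a single oral gavage. TCDD is a dioxin and activates the transcription factor AHR (aryl hydrocarbon receptor). Long-Evans rats received 0.001, 0.01, 0.1, 1, 10, 50, 100 or 1000 µg/kg TCDD and were examined at 19 h, received 100 µg/kg and were also examined at 3, 6, 10, 96 and 240 h, or received corn oil and were examined at 19, 96 or 240 h. Han/Wistar rats received 0.001, 0.01, 0.1, 1, 10, 100, 1000 or 3000 µg/kg TCDD for 19 h, 100 µg/kg for 1.5, 3, 6, 10, 96, 240 or 384 h as well, or corn oil for 1.5, 19, 96, 240 or 384 h.

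The proteasome is the barrel-shaped protease that breaks down ubiquitin-tagged proteins. Misfolded proteins of the ER reach it through ER-associated degradation, in which they are pulled back across the ER membrane, tagged and degraded. When unfolded proteins build up in the ER, membrane sensors start the unfolded protein response, which raises chaperones and degradation factors. Hepatocytes secrete most plasma proteins and carry much ER, where many enzymes of foreign-compound metabolism also reside.

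The 4 genes stand at different steps of this route. Psmb4 encodes a beta subunit of the proteasome core that carries no active site of its own. Pomp encodes the proteasome maturation protein, a chaperone that helps the core assemble and is itself degraded once the core is complete. Derl1 encodes derlin-1, an ER membrane protein of the retrotranslocation step. Ern1 encodes IRE1 alpha, the ER sensor whose ribonuclease domain splices Xbp1 mRNA. The assays were Rn00581196_g1 for Psmb4 on chromosome 2, Rn01409550_g1 for Pomp on chromosome 12, Rn01767683_g1 for Derl1 on chromosome 7 and Rn01471008_m1 for Ern1 on chromosome 10, with the chromosomes taken from RefSeq GRCr8. Of the pathway lists, 2 of 43 proteasome genes, 1 of 15 genes of ER-associated degradation and 1 of 17 genes of the unfolded protein response and ER chaperones were on the panel, and these are the same 4 genes. Xbp1, the chaperones and the catalytic subunits were not on the panel.

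RefSeq promoter windows of GRCr8, 250 bases before to 50 after the start, were matched for 2 of the 4 genes, Psmb4 (chr2:185134512-185134811, minus strand) and Pomp (chr12:12210788-12211087, minus strand). They are shown because both genes were measured after an activator of the AHR. Capitals mark the AHR core GCGTG or, on the other strand, CACGC.
Psmb4: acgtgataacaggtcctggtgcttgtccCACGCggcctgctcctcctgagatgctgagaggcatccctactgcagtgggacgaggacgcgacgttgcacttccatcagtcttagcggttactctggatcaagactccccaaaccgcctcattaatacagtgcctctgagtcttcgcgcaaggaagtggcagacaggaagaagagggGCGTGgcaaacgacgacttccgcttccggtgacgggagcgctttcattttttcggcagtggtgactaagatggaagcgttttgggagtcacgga
Pomp: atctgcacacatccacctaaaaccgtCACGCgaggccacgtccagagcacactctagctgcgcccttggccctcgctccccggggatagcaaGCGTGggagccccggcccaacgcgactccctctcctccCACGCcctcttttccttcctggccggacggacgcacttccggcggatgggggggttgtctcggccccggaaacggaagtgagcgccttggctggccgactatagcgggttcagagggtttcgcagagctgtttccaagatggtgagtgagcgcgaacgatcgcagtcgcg
The Psmb4 window held 2 matches, 222 and 44 bases before the start. The Pomp window held 3 matches, 224, 158 and 120 bases before the start. A match on either strand was found in 29.7% of 33469 rat promoter windows of this length, and 10.2% held at least 2. Among the panel's genes 19 of 42 matched windows held one (45.2%). The antioxidant element TGACNNNGC (or GCNNNGTCA) had no match in either window, against 12.1% of all windows. GC content was 56% for Psmb4 and 64.7% for Pomp, with a median of 51.7% over all windows. Matches describe letters, and no binding was measured here.

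Liver cDNA was run on the OpenArray, with nanolitre wells, and on the 7900HT, a conventional instrument. There were 150 and 154 samples, in 36 groups of 3 to 7 rats on each, and 150 sample titles are on both. The authors' deposited table of each platform gives 1 value per gene and group, taken as the log2 fold change to the 19 h corn oil group of that strain, which is 0 for every gene. The log base is inferred. The values of single animals were not used, so the spread between animals is unknown and groups were the units of every test. All 144 values of the 4 genes were present on each platform. Cyp1a1, the classical AHR target, lay between 7.85 and 9.50 in Long-Evans and between 5.63 and 10.06 in Han/Wistar groups given 100 µg/kg, by the authors' deposited table of the OpenArray. On the 7900HT, the authors' deposited table lists Cyp1a1 between 5.77 and 8.26 in Long-Evans and between 6.78 and 14.12 in Han/Wistar groups at that dose, but also at 5.50 in Long-Evans at 0.001 µg/kg. The panel held none of 20 fixed markers of liver cell types, so cell makeup could not be examined. In bulk liver, fewer cells of a type and less RNA per cell cannot be told apart.

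Across all 28 TCDD groups of both strains, the OpenArray changes were small. By the authors' deposited table, 5 of 112 member values (4.46%) reached 2-fold in either direction on the OpenArray, against 33.6% over all targets. The 7900HT values were wider, with 72 of 112 member values (64.3%) at 2-fold or more in the authors' deposited table, against 70.2% over all targets. The corn oil groups were wider there too. Their SD over times for the 4 genes was 0.08 to 0.23 on the OpenArray and 0.39 to 1.14 on the 7900HT in log2 units (3 Long-Evans and 5 Han/Wistar groups). The OpenArray panel as a whole also moved with TCDD. Its median target lay between 0.15 and 1.00 in the Long-Evans and between -0.08 and 0.44 in the Han/Wistar groups of the 100 µg/kg time course, against -0.02 to 0.04 and -0.35 to 0 in the corn oil groups, so each gene is set beside that shift below. The mean over targets moved more. At 100 µg/kg and 19 h it was 1.12 in Long-Evans and 0.86 in Han/Wistar, beside medians of 0.58 and 0.23. A gene that rose less than the subtracted value becomes negative. Downward calls after subtraction are therefore relative to the panel and do not by themselves show a fall of the gene.

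Ern1, the ER stress sensor, was lower at the higher doses on the OpenArray. In Long-Evans, the authors' deposited table lists 0.30, -0.24, -0.38, -0.37, -0.65, -0.82, -0.70 and -0.68 from 0.001 to 1000 µg/kg, with every group at 10 µg/kg and above below every group at lower doses. At 50 µg/kg this was 0.565 of the corn oil level. Spearman's rho with dose was -0.88 (Pearson's r -0.90), and Ern1 fell with dose (two-sided exact permutation test over 8 groups, adjusted p = 0.0127). Leaving out 0.001 and 0.01 µg/kg, the doses farthest from the median dose, gave rho -0.71, and the call was lost without the group at 0.001, 0.01 or 10 µg/kg (rho -0.82 each, exact permutation test, adjusted p = 0.0507 to 0.0539). In Han/Wistar, the authors' deposited table lists -0.28, -0.48, -0.04, -0.26, -0.61, -0.83, -0.49 and -0.77 from 0.001 to 3000 µg/kg. All 8 groups were below corn oil at 19 h, with rho -0.69, which did not pass (exact permutation test, adjusted p = 0.0919). It passed when the median target of each group was subtracted (adjusted p = 0.0219 by the same exact permutation test).

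**Figure D1:**
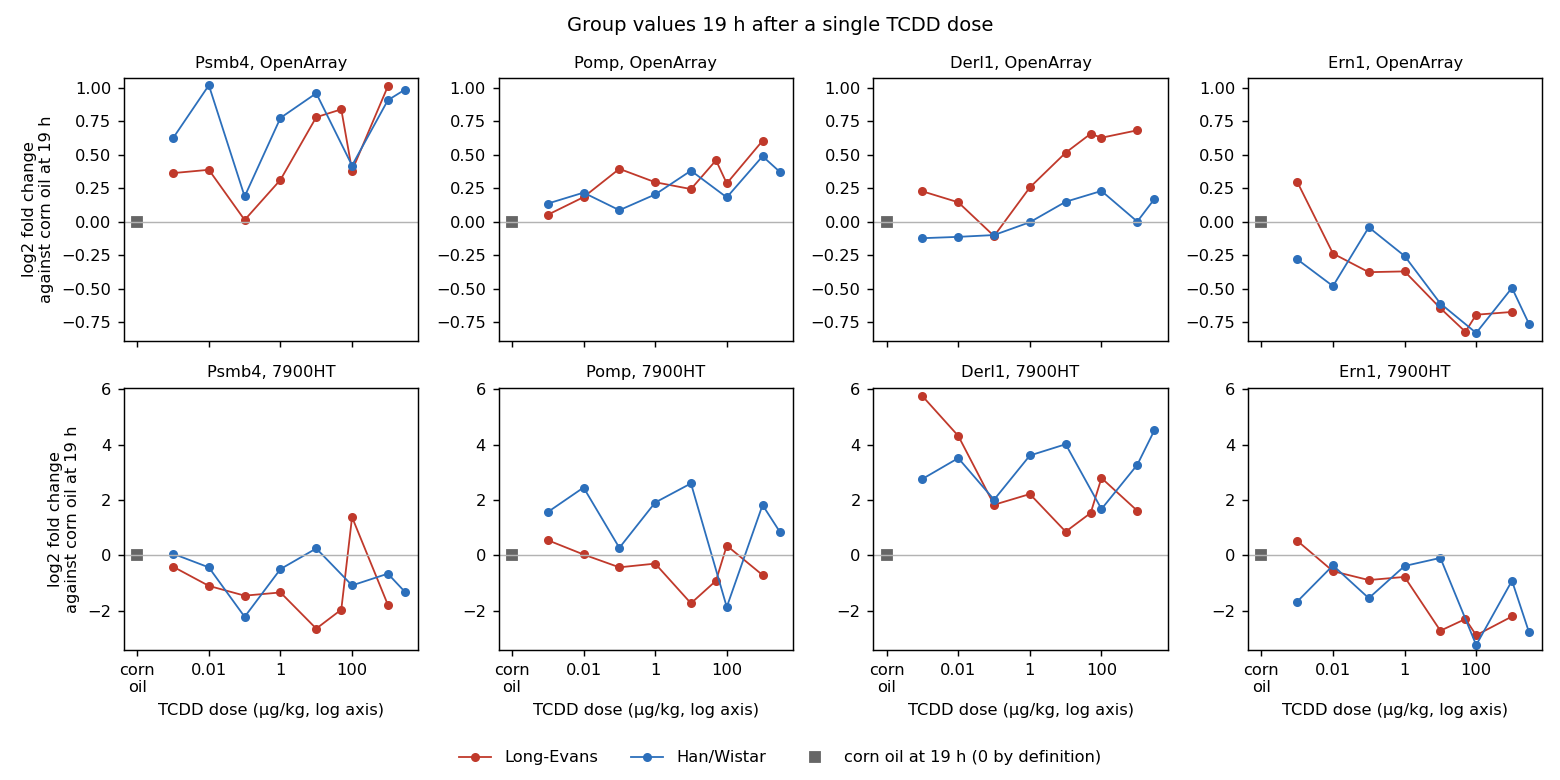
Deposited log2 fold change of the 4 genes at 19 h (y axis) against TCDD dose in µg/kg on a log axis (x axis), one panel per gene and platform, with a point per group, colours for the strains, and the grey square and line at 0 for corn oil. As deposited, OpenArray Derl1 rises to 0.68 and Ern1 drops to -0.82 in Long-Evans, while the 7900HT values scatter more widely.

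Over the 100 µg/kg time course on the OpenArray, Ern1 did not pass in either strain as deposited, and passed in some scalings. In Long-Evans it was -0.49, -0.11, -0.60, -0.70, -0.08 and 0.07 at 3, 6, 10, 19, 96 and 240 h in the authors' deposited table, against 0, 0.25 and 0.10 in corn oil at 19, 96 and 240 h. Values were lowest at 10 and 19 h. Against corn oil of the same time, Ern1 was lower by 0.34 at 96 h and near it at 240 h (-0.02). The TCDD and corn oil groups overlapped. The mean difference, TCDD minus corn oil, was -0.44 (exact permutation test over 84 splits, adjusted p = 0.0778), the 12th lowest of 49 targets. It passed at -1.04 with the group median subtracted (adjusted p = 0.0324) and at -1.55 with the group mean subtracted (adjusted p = 0.0265, same exact permutation test). For Han/Wistar the authors' deposited table lists 0.24, -0.41, 0.23, -0.38, -0.83, -0.32, -1.04 and -0.63 at 1.5, 3, 6, 10, 19, 96, 240 and 384 h, against -0.50, 0, -0.18, -0.23 and -0.50 in corn oil at 1.5, 19, 96, 240 and 384 h. These groups overlapped, with a difference of -0.11 (exact permutation test over 1287 splits, adjusted p = 0.668). It was -0.55 with the group median subtracted (adjusted p = 0.0681) and passed at -1.14 with the group mean subtracted (adjusted p = 0.0169, same exact permutation test).

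The 7900HT gave a far larger Ern1 difference over the same time course. In Long-Evans the authors' deposited table lists -3.85, -2.51, -2.95, -2.89, -2.53 and -2.60 at 3 to 240 h, against 0, 1.04 and -0.09 in corn oil. In Han/Wistar it lists -1.86, -2.73, -2.35, -1.29, -3.25, -2.28, -3.89 and -2.96 at 1.5 to 384 h, against -1.05, 0, 0.29, 0.19 and 0.33 in corn oil, also by the authors' deposited table. No TCDD group reached any corn oil group in either strain. Ern1 fell by 2.53 on the log2 scale in Han/Wistar (exact permutation test over 1287 splits, adjusted p = 0.0101), at 0.000777 the smallest p that these splits allow. In Long-Evans the difference was -3.20, the lowest of all 39 targets, with the smallest p its 84 splits allow (0.0119), but it did not pass (exact permutation test, adjusted p = 0.0663). It passed at -3.84 with the group median and at -4.01 with the group mean subtracted (adjusted p = 0.0464 for each, same exact permutation test). It did not pass, at -3.41, with the median of the genes with as many rows of cycle values subtracted (adjusted p = 0.0516, same exact test). The group median was higher with TCDD (on average 0.64 against 0.00 in corn oil), so subtracting it could only lower the difference. At 3 h Ern1 was below corn oil of 19 h on both platforms and in both strains, but there was no corn oil group at 3 h. On the OpenArray in Han/Wistar it was -0.41 at 3 h, between 0.24 at 1.5 h and 0.23 at 6 h. Corn oil at 1.5 h in that strain was -0.50 on the OpenArray and -1.05 on the 7900HT.

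**Figure D2:**
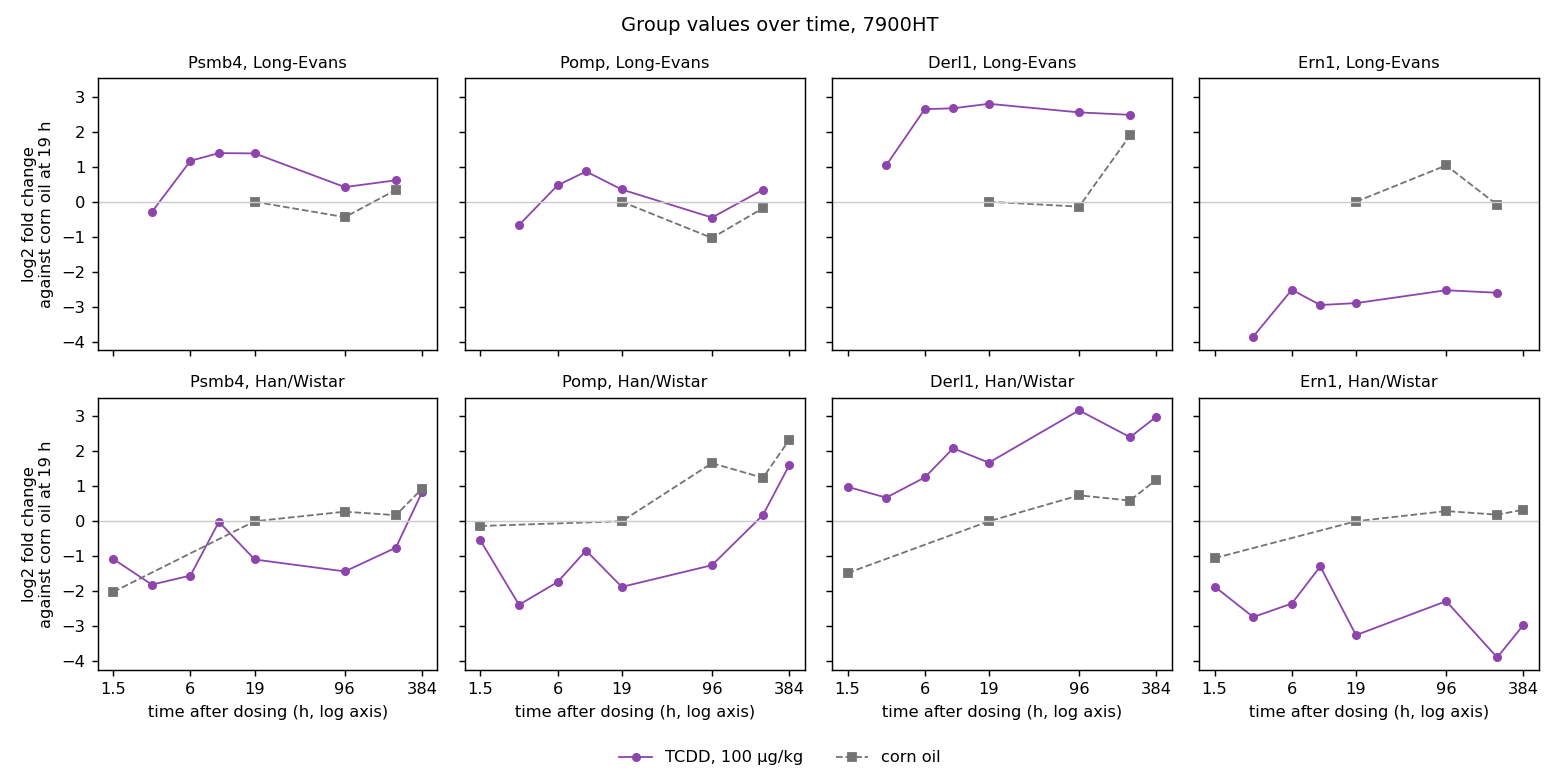
Deposited log2 fold change on the 7900HT (y axis) against hours after 100 µg/kg TCDD or corn oil on a log axis (x axis), one panel per gene and strain, with a point per group. Ern1 after TCDD stays at or below -1.29 at every time, under all corn oil groups, and Psmb4 and Pomp at 19, 96 and 240 h lie above corn oil of the same time in Long-Evans and below it in Han/Wistar.

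The Ern1 dose response on the 7900HT did not pass. For it the authors' deposited table lists 0.53, -0.58, -0.90, -0.78, -2.73, -2.31, -2.89 and -2.21 in Long-Evans with the dose rising to 1000 µg/kg. As on the OpenArray, every group at 10 µg/kg and above was below every group at lower doses, with rho -0.81 (exact permutation test, unadjusted p = 0.0218, adjusted p = 0.283). The panel moved there too. The median of the genes with as many rows of cycle values was -2.82, -2.23, 0.73 and -2.13 at 10, 50, 100 and 1000 µg/kg. Ern1 was near it at 10, 50 and 1000 µg/kg and far below it only at 100 µg/kg. From 0.001 to 1 µg/kg that median was -0.66, -1.59, -1.78 and -1.34, with Ern1 above it each time. After the median of the genes with as many rows in the table of cycle values was subtracted, rho was -0.98 and passed (exact permutation test, adjusted p = 0.0111). The trend did not pass with the group mean (rho -0.81, adjusted p = 0.170) or the group median subtracted (rho -0.88, adjusted p = 0.0706, same exact test). Han/Wistar values in the authors' deposited table were -1.68, -0.37, -1.55, -0.39, -0.10, -3.25, -0.92 and -2.79 from 0.001 to 3000 µg/kg, in no clear order (rho -0.29, exact permutation test, adjusted p = 0.630). Across all 28 TCDD groups, Ern1 was below 0 in 24 on the OpenArray and in 27 on the 7900HT. Of the corn oil groups other than 19 h, 4 of 4 in Han/Wistar and 0 of 2 in Long-Evans were below 0 on the OpenArray. On the 7900HT it was 1 of 4 and 1 of 2.

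Derl1, the retrotranslocation gene, had an upward dose trend in both strains on the OpenArray as deposited, which did not hold under other scalings. Neither trend passed with the group median subtracted (rho -0.38, adjusted p = 0.392 in Long-Evans and rho -0.66, adjusted p = 0.111 in Han/Wistar, exact permutation test). With the group mean subtracted both passed downward, relative to a panel mean that rose with dose (rho -0.83, adjusted p = 0.0290 in Long-Evans and rho -0.90, adjusted p = 0.0172 in Han/Wistar, same exact test). In Long-Evans the authors' deposited table lists 0.23, 0.15, -0.11, 0.26, 0.52, 0.66, 0.63 and 0.68 from 0.001 to 1000 µg/kg, a level of 1.61-fold over corn oil at the top dose. The 4 highest doses gave the 4 highest values. Derl1 rose with dose (rho 0.88, r 0.82, exact permutation test over 8 groups, adjusted p = 0.0127), with rho 0.94 when 0.001 and 0.01 µg/kg were both left out, and the call was lost without the group at 1 or 10 µg/kg (rho 0.82 each, exact permutation test, adjusted p = 0.0557 and 0.0507). In Han/Wistar the authors' deposited table lists -0.12, -0.11, -0.10, -0.00, 0.15, 0.23, 0.00 and 0.17 from 0.001 to 3000 µg/kg. The range was narrower than in Long-Evans, but Derl1 also rose with dose there (rho 0.88, r 0.79, exact permutation test, adjusted p = 0.0187, and rho 0.83 when 0.001 and 3000 µg/kg were both left out). Without the group at 0.001, 0.01, 0.1 or 1 µg/kg it did not pass (rho 0.82 each, exact permutation test, adjusted p = 0.0669 to 0.0836).

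With time at 100 µg/kg, Derl1 in Long-Evans was 0.21, 0.53, 0.52, 0.63, 1.10 and 1.13 at 3, 6, 10, 19, 96 and 240 h in the authors' deposited table, against 0, 0.20 and 0.05 in corn oil at 19, 96 and 240 h. The value at 240 h is 2.19-fold. Every TCDD group was above every corn oil group, by a mean of 0.61 (exact permutation test over 84 splits, p = 0.0476, adjusted p = 0.0778), which passed without the group at 3 h (0.70, exact permutation test, adjusted p = 0.0417). Han/Wistar livers had, in the authors' deposited table, -0.20, -0.05, 0.32, 0.49, 0.23, 0.27, 0.34 and 0.35 at 1.5 to 384 h, against -0.39, 0, -0.23, -0.21 and -0.10 in corn oil. Derl1 was higher with TCDD there by 0.41, with overlapping groups (exact permutation test over 1287 splits, adjusted p = 0.0254). Its value was above that of every corn oil group from 6 h on, and without corn oil at 1.5 h the difference was 0.36 (exact permutation test, adjusted p = 0.0630).

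These Derl1 values followed the middle of the panel. Its time course difference ranked 27th of 49 targets from the highest in both strains. With the group median subtracted, that difference was -0.00 in Long-Evans and -0.04 in Han/Wistar. With the group mean subtracted Derl1 passed downward, at -0.51 in Long-Evans (adjusted p = 0.0265) and -0.62 in Han/Wistar (adjusted p = 0.00346, exact permutation tests).

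**Figure D3:**
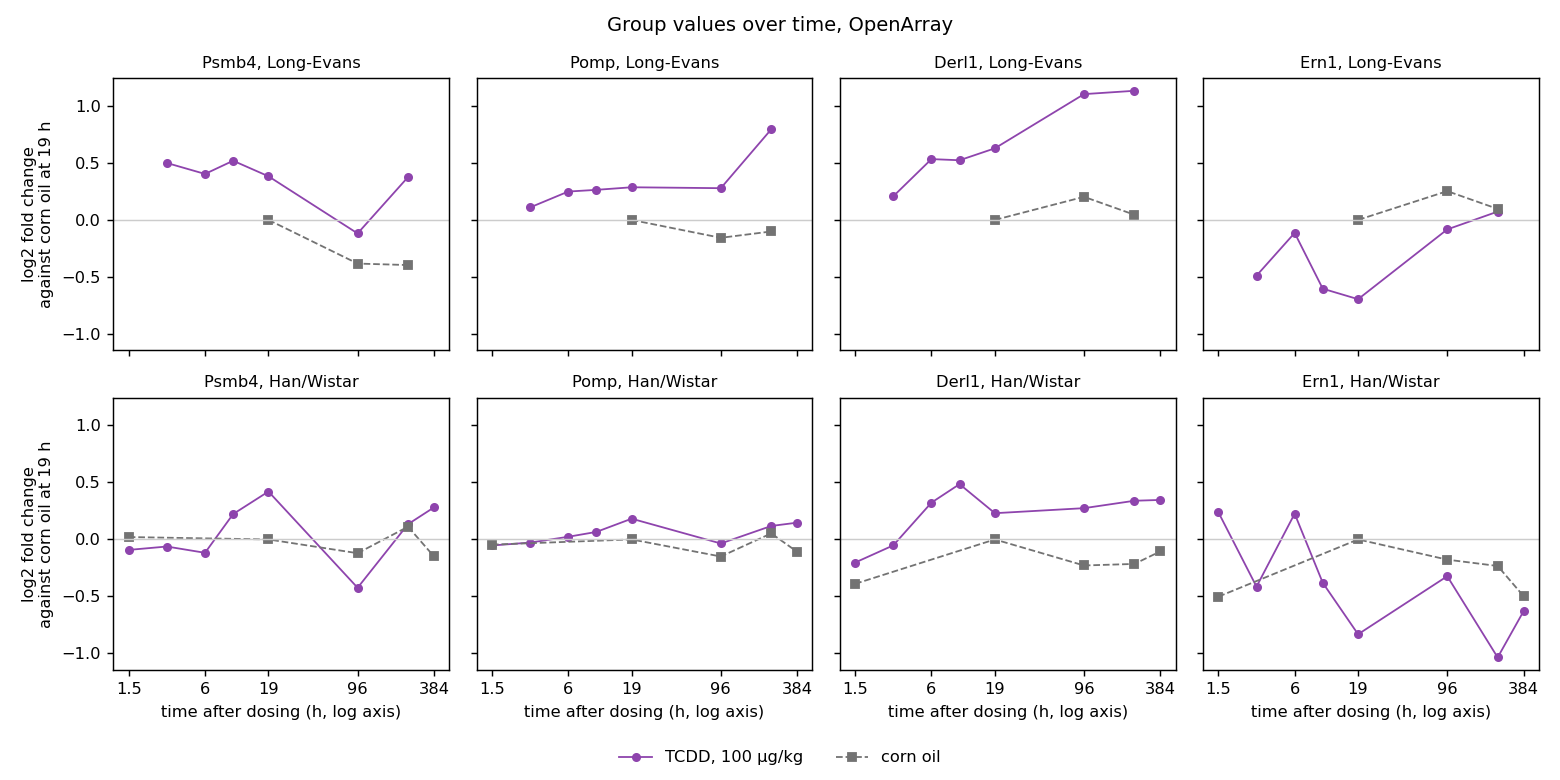
Deposited log2 fold change on the OpenArray (y axis) against hours after 100 µg/kg TCDD or corn oil on a log axis (x axis), one panel per gene and strain, with a point per group. As deposited, Derl1 climbs to 1.13 at 240 h in Long-Evans and stays at or below 0.49 in Han/Wistar, and Pomp in Long-Evans is above all corn oil groups at every time; with the group median subtracted, the mean differences are -0.00 and -0.04 for Derl1 and -0.19 for Pomp in Long-Evans.

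On the 7900HT, Derl1 was above 0 in all 28 TCDD groups of the authors' deposited table, from 0.67 to 5.76. Of the corn oil groups other than 19 h, 3 of 4 in Han/Wistar and 1 of 2 in Long-Evans were above 0 too. In Long-Evans the authors' deposited table lists 5.76, 4.32, 1.83, 2.21, 0.85, 1.53, 2.80 and 1.61 from 0.001 to 1000 µg/kg, so the 2 lowest doses had the 2 highest values. The dose trend had the opposite sign to the OpenArray and did not pass (rho -0.60, exact permutation test, adjusted p = 0.677), but passed downward with the group median subtracted (rho -0.98, adjusted p = 0.0148, same exact test). In Han/Wistar it lay between 1.67 and 4.52 over the doses in the authors' deposited table, with rho 0.33 (exact permutation test, adjusted p = 0.621).

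Over the time course on that platform, the authors' deposited table lists Derl1 at 1.04, 2.64, 2.67, 2.80, 2.55 and 2.48 at 3 to 240 h in Long-Evans, against 0, -0.14 and 1.89 in corn oil. The difference was 1.78 (exact permutation test over 84 splits, adjusted p = 0.0929), with overlapping groups. In Han/Wistar the authors' deposited table lists 0.98, 0.67, 1.25, 2.08, 1.67, 3.17, 2.40 and 2.98 at 1.5 to 384 h, against -1.48, 0, 0.74, 0.59 and 1.19 in corn oil. Derl1 was higher with TCDD there by 1.69 (exact permutation test over 1287 splits, adjusted p = 0.0364), again with overlapping groups. That call was lost without the TCDD group at 10, 19, 96 or 240 h or the corn oil group at 1.5, 19 or 240 h (difference 1.27 to 1.79, exact permutation test, adjusted p = 0.0523 to 0.0700). As deposited, Derl1 was higher with TCDD over the Han/Wistar time course on both platforms, which on the OpenArray did not hold with the group median subtracted (-0.04). On the 7900HT it passed upward with the group mean (1.22, adjusted p = 0.0398) or median subtracted (1.76, adjusted p = 0.0114, exact permutation test). It also did with the median of genes with as many rows (2.56, adjusted p = 0.00505, same exact test). Both medians were lower with TCDD there, so subtracting them raised the difference.

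Pomp, the assembly chaperone, was higher with TCDD in Long-Evans on the OpenArray as deposited, but not with the group median subtracted (-0.19, exact permutation test, adjusted p = 0.258), and it passed downward with the group mean subtracted (-0.70, adjusted p = 0.0265, same exact test). The authors' deposited table lists 0.11, 0.25, 0.26, 0.29, 0.28 and 0.80 at 3, 6, 10, 19, 96 and 240 h at 100 µg/kg, against 0, -0.16 and -0.10 in corn oil at 19, 96 and 240 h. Every TCDD group lay above every corn oil group, and the value at 240 h, 1.74-fold, stood above the rest. Pomp was higher by 0.42 (exact permutation test over 84 splits, p = 0.0119, the smallest possible, adjusted p = 0.0365). The call was lost without the TCDD group at 6, 10, 19 or 96 h or any one corn oil group (difference 0.38 to 0.46, exact permutation test, adjusted p = 0.0547 to 0.243). Leaving out a group also leaves fewer splits and a larger smallest possible p, most of all for a corn oil group. These losses therefore do not tell how stable the Pomp difference was. In Han/Wistar the TCDD groups lay between -0.05 and 0.18, against -0.15 to 0.05 in corn oil, by the authors' deposited table. That difference of 0.10 did not pass (exact permutation test, adjusted p = 0.107). It passed downward with the group median (-0.34, adjusted p = 0.0136) or mean subtracted (-0.92, adjusted p = 0.00346, same exact test).

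Pomp showed no passing dose trend on the OpenArray by Spearman's rho. In Long-Evans the authors' deposited table lists 0.05, 0.18, 0.40, 0.30, 0.24, 0.46, 0.29 and 0.61 from 0.001 to 1000 µg/kg (rho 0.71, exact permutation test, adjusted p = 0.0656). It passed by Pearson's r (0.78, adjusted p = 0.0234, exact permutation test), whose value was 0.48 without 0.001 and 0.01 µg/kg, and by rho without the group at 100 µg/kg (0.86, adjusted p = 0.0307, same exact test). In Han/Wistar it lists 0.14, 0.22, 0.09, 0.20, 0.38, 0.18, 0.49 and 0.37 from 0.001 to 3000 µg/kg, again from the authors' deposited table (rho 0.62, exact permutation test, adjusted p = 0.137). All 16 dose groups were above corn oil at 19 h. After the group median was subtracted, rho was -0.52 in Long-Evans and -0.55 in Han/Wistar (adjusted p = 0.224 and 0.204, exact permutation test), and after the group mean it was -0.76 and -0.90 (adjusted p = 0.0515 and 0.0172).

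Psmb4, the core subunit, was above corn oil at 19 h in all 16 OpenArray dose groups, without a passing trend. In Long-Evans the authors' deposited table lists 0.36, 0.39, 0.01, 0.31, 0.78, 0.84, 0.38 and 1.01 from 0.001 to 1000 µg/kg (rho 0.62, exact permutation test, adjusted p = 0.120). The authors' deposited table lists for Han/Wistar 0.63, 1.02, 0.19, 0.78, 0.96, 0.42, 0.91 and 0.99 from 0.001 to 3000 µg/kg (rho 0.21, exact permutation test, adjusted p = 0.645). The Han/Wistar values at 0.01 µg/kg and 3000 µg/kg were nearly the same, and the group at 0.1 µg/kg was the lowest in both strains. With the group median subtracted, rho was -0.14 in Long-Evans and -0.40 in Han/Wistar.

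Over time at 100 µg/kg, Psmb4 in Long-Evans was 0.50, 0.40, 0.52, 0.38, -0.12 and 0.38 at 3 to 240 h in the authors' deposited table, against 0, -0.38 and -0.40 in corn oil. The groups overlapped at 1 TCDD time, 96 h, and the difference of 0.60 did not pass (exact permutation test over 84 splits, adjusted p = 0.0556). In Han/Wistar the authors' deposited table lists -0.09, -0.06, -0.12, 0.22, 0.42, -0.42, 0.13 and 0.28 at 1.5 to 384 h, against 0.02, 0, -0.12, 0.11 and -0.15 in corn oil. These groups overlapped, with a difference of 0.07 (exact permutation test over 1287 splits, adjusted p = 0.660). With the group mean subtracted it passed downward (-0.95, adjusted p = 0.00346, same exact test), and with the median it was -0.37 (adjusted p = 0.0508).

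On the 7900HT as deposited, the time course differences of the proteasome genes were above 0 in Long-Evans and below 0 in Han/Wistar, and none passed. Over the time course in Long-Evans, Psmb4 lay between -0.29 and 1.39 and Pomp between -0.67 and 0.86, against -0.44 to 0.34 and -1.03 to 0 in corn oil, by the authors' deposited table. The differences were 0.81 for Psmb4 (exact permutation test, adjusted p = 0.211) and 0.56 for Pomp (exact permutation test, adjusted p = 0.344). In Han/Wistar, Pomp lay between -2.38 and 1.59, against -0.13 to 2.32 in corn oil, by the authors' deposited table, a difference of -1.87 (exact permutation test, adjusted p = 0.0549), which passed without TCDD at 384 h (-2.22, adjusted p = 0.0269, same exact test) or corn oil at 1.5 h (-2.16, adjusted p = 0.0492, same exact test). It also passed with the group mean (-2.34, adjusted p = 0.0186) or median subtracted (-1.80, adjusted p = 0.0303, same exact test). The Han/Wistar difference of Psmb4 was -0.73 (exact permutation test, adjusted p = 0.295). Neither gene had a passing dose trend there, with rho between -0.48 and -0.21 and adjusted p between 0.610 and 0.732 by the exact permutation test.

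By the counts on the values as deposited, 2 of the 4 genes had a dose trend in Long-Evans on the OpenArray, Derl1 upward and Ern1 downward, against 79.6% of all 49 targets (53.1% upward and 26.5% downward). In Han/Wistar it was 1 of 4, Derl1, against 59.2% (38.8% upward and 20.4% downward). On the 7900HT it was 0 of 4 in Long-Evans, where no target passed (0%), and 0 of 4 in Han/Wistar, where 2.56% of 39 passed (exact permutation tests of rho). At an unadjusted p under 0.05 these counts were 1 of 4 beside 5 of 39 targets in Long-Evans and 0 of 4 beside 10 of 39 in Han/Wistar, and Pearson's r gave 0 of 4 after adjustment in both. For the time course, 1 of 4 passed in Long-Evans on the OpenArray, Pomp, against 32.7% of targets (30.6% higher and 2.04% lower). In the other strain 1 of 4 passed, Derl1, against 55.1% (53.1% higher and 2.04% lower). On the 7900HT it was 0 of 4 in Long-Evans, where no target passed (0%). With the splits of that strain, a target could pass only if many reached the smallest p together. At an unadjusted p under 0.05 the count was 2 of 4 there, beside 16 of 39 targets (exact permutation test). It was 2 of 4 in Han/Wistar, Derl1 and Ern1, against 35.9% of the panel (15.4% higher and 20.5% lower).

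The separation of TCDD from corn oil groups can be read against the panel in the same way. On the OpenArray 2 of 4 genes, Pomp and Derl1, had no overlap in Long-Evans, both higher, against 67.3% of targets (51% higher and 16.3% lower), and 0 of 4 in Han/Wistar, against 12.2%. On the 7900HT Ern1 alone of the 4 had no overlap in each strain, and it was lower. That compares with 25.6% of targets in Long-Evans (15.4% higher and 10.3% lower) and 7.69% in Han/Wistar (5.13% higher and 2.56% lower). The median difference of the 4 genes was 0.51 in Long-Evans and 0.09 in Han/Wistar on the OpenArray, beside 0.63 and 0.58 over all targets. On the 7900HT it was 0.69 and -1.30, beside 0.56 and 0.07.

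**Figure D4:**
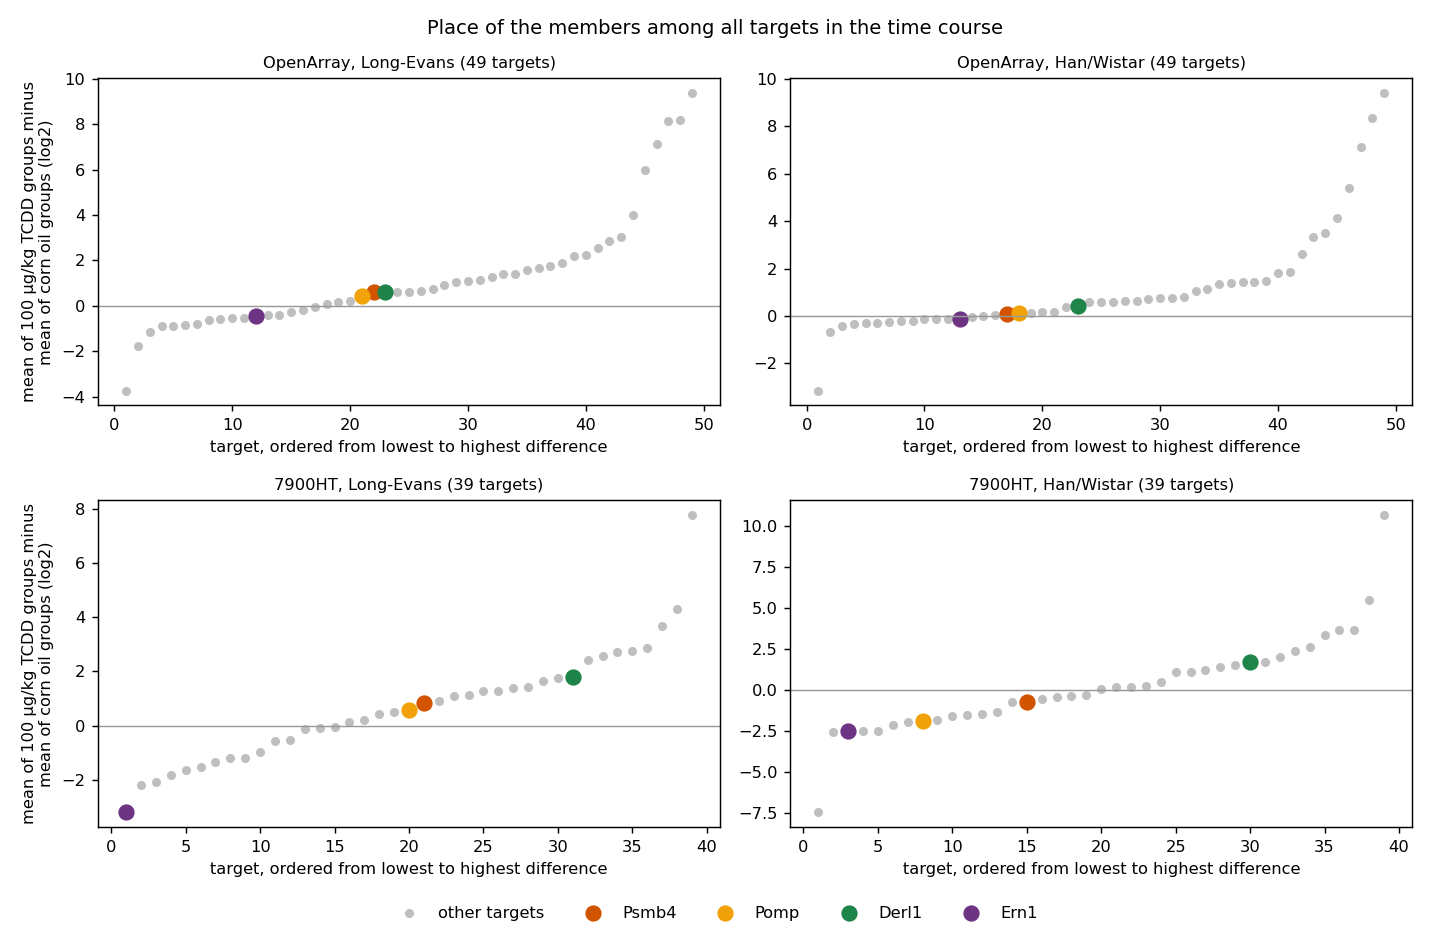
Time course difference, mean of the 100 µg/kg TCDD groups minus mean of the corn oil groups in log2 units (y axis), of every target in order of size (x axis), by platform and strain, with the 4 genes marked and a y range of its own in each panel. Ern1 is the lowest of 39 targets on the 7900HT in Long-Evans and the third lowest in Han/Wistar, and Derl1 is 27th of 49 on the OpenArray in both.

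To compare the strains, the Han/Wistar value was subtracted from the Long-Evans value of the group with the same dose and time. As deposited, none of the 4 genes passed on either platform, for dose or for time. No target of the panel passed in any of these tests (0% each, exact permutation tests). With 84 splits in the time course test, a target could pass only if many reached the smallest p together. These counts therefore do not show that the strains were alike. Ern1 passed in the 7900HT dose trend with the median of genes with as many rows subtracted (rho -0.96, adjusted p = 0.0257, exact permutation test). It did not pass with the group mean or median subtracted. At an unadjusted p under 0.05 by the exact permutation test, the time course counts were 2 of 4 on each platform, beside 6 of 49 OpenArray targets and 8 of 39 on the 7900HT. For the dose trend they were 0 of 4 on each, beside 5 of 48 and 0 of 37 targets, and Pearson's r gave 0 of 4 after adjustment. On the OpenArray these were Psmb4, whose TCDD effect was larger in Long-Evans by 0.57 (adjusted p = 0.292, exact permutation test over 84 splits), and Pomp, by 0.33 (adjusted p = 0.292, same exact test). On the 7900HT they were again Psmb4, by 2.07, and Pomp, by 2.84 (adjusted p = 0.155 for both, exact permutation test, with p = 0.0119, the smallest possible). For Derl1 the strain difference in the time course was 0.19 on the OpenArray (exact permutation test, adjusted p = 0.729), although its Long-Evans values at 96 and 240 h stood above every Han/Wistar value.

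The platforms were set against each other over the same TCDD groups. In Han/Wistar, 1 of 4 genes passed, against 23.7% of 38 shared targets. Pomp correlated across 15 groups (rho 0.74, r 0.69, permutation test, adjusted p = 0.0160, and r 0.62 without the 2 groups farthest from the median). Psmb4 had rho 0.53 (permutation test, adjusted p = 0.122), Ern1 0.40 and Derl1 0.05. In Long-Evans, 0 of 4 passed over 13 groups, against 15.8% (permutation test of rho, with 0 of 4 also at an unadjusted p under 0.05 and by Pearson's r), with Ern1 at 0.37, Derl1 at -0.07, Pomp at -0.24 and Psmb4 at -0.27. Ern1 had the same sign on both platforms in 12 of 13 Long-Evans and 13 of 15 Han/Wistar groups, Derl1 in 12 and 9, and Pomp in 6 and 12. Psmb4 had the same sign in 4 of 13 and 7 of 15.

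**Figure D5:**
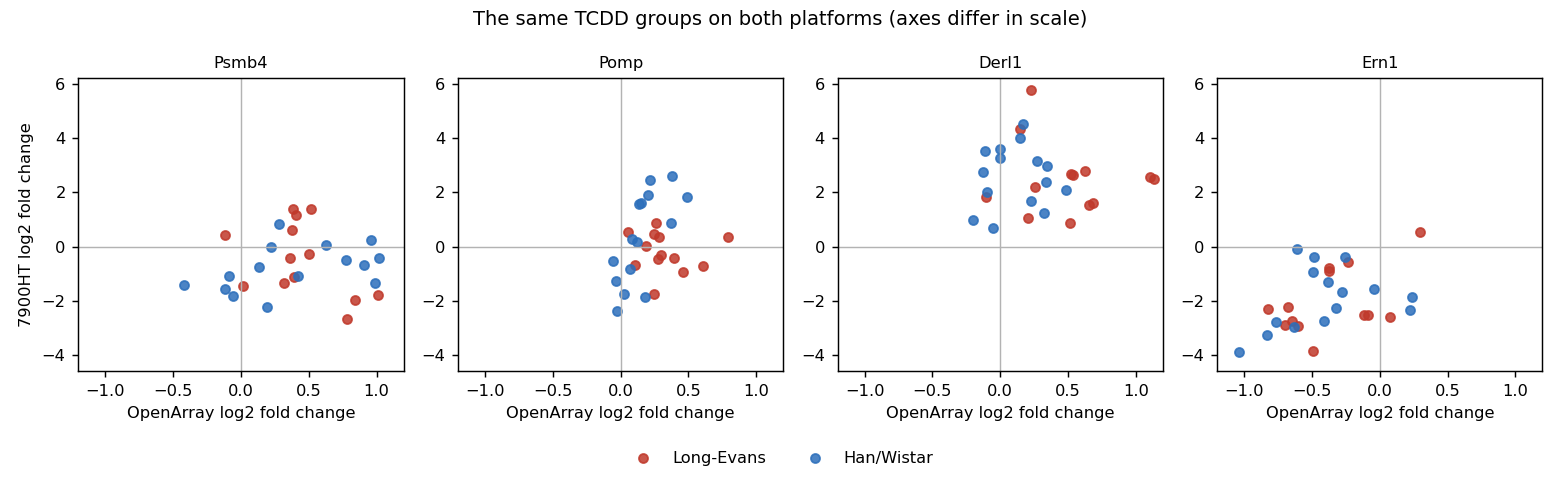
Deposited log2 fold change of each TCDD group on the 7900HT (y axis) against the OpenArray (x axis), one panel per gene, with colours for the strains. Pomp in Han/Wistar follows a rising line (rho 0.74), and Ern1 points lie mostly below 0 on both axes.

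Likeness of pattern was measured as Pearson's r over the 34 OpenArray groups other than corn oil at 19 h, as a description, since all targets of a group share its animals and its shift. Psmb4 was most like Pomp (r 0.69), then Hsd17b12 (0.36) and Mawbp (0.34). Pomp was most like Psmb4, then Nfe2l2 (0.64), which encodes the antioxidant regulator NRF2, and Pmm1 (0.62). Derl1 was most like Uvrag (0.87), Nfe2l2 (0.87) and Pde2a (0.86). Ern1 was most like Ugt1a1 (0.71), Lasp1 (0.69) and Slco1a1 (0.66), of which Slco1a1 encodes a hepatic uptake transporter. With the group median subtracted, Psmb4 and Pomp were still each other's nearest (0.83) and Ern1 had the same 3 neighbours, in the order Slco1a1 (0.89), Ugt1a1 (0.87) and Lasp1 (0.86), while no target was close to Derl1 (at most 0.19, Col18a1). On the 7900HT the r between Psmb4 and Pomp was 0.55 as deposited.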

How the data were processed

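Liver total RNA was reverse transcribed and measured by real-time PCR, per the labels' protocols, on 2 platforms (OpenArray, 7900HT). The deposited tables hold 1 value per gene and group, which the authors computed and which was taken as the log2 fold change to the 19 h corn oil group of that strain, although no header states the base. The reference genes and the averaging were not given in the sources used here. R 2.12.2 was used, per the submitters' processing notes. The tables of cycle values have 304 columns of animal codes that match no sample label, and none was used. Without values per animal, p-values reflect only how groups vary, and the depth behind a value is unknown.

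Groups came from the labels. The dose trend test was Spearman's rho against log10 dose over 8 TCDD groups at 19 h, and time courses by the mean of the 100 µg/kg groups minus the mean of the corn oil groups. Both used exact permutation over groups, were two-sided, and were adjusted by Benjamini-Hochberg over every target of a platform and strain (threshold 0.05). Correlations between platforms used 100000 permutations. All 4 genes are named in every comparison, with the 3 targets most like each. The members, lists and tests were chosen with earlier results of these data known. Alternatives were other scalings of each group, corn oil as the lowest dose, Pearson's r, joint adjustment, fewer groups and leaving out single groups. The procedures were tested on simulated data. The work was done in Python 3.11.15 with scipy 1.17.1, numpy 2.4.6, pandas 2.3.3 and, for the plots, matplotlib 3.10.9.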

Additional observations from a re-analysis of the deposited data

Results flagged for a closer look

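Psmb4 and Pomp on the 7900HT moved in opposite directions in the strains at every time with a TCDD and a corn oil group in both. At 19, 96 and 240 h, Psmb4 at 100 µg/kg minus corn oil of the same time was 1.38, 0.86 and 0.28 in Long-Evans, against -1.09, -1.71 and -0.93 in Han/Wistar, from the authors' deposited table, a median strain difference of 2.47. Pomp was 0.35, 0.58 and 0.53 in Long-Evans, against -1.87, -2.91 and -1.06 in Han/Wistar, also from the authors' deposited table, a median difference of 2.22. Such a reversal was seen in 3 of 37 targets on the 7900HT (8.11%) and in 0 of 49 on the OpenArray. The strain test over 9 matched groups gave an adjusted p of 0.155 for each gene (exact permutation test), at the smallest p its splits allow. The reversal itself was not tested. With the group median subtracted, Pomp was below 0 in both strains at all 3 times (-0.38, -0.22 and -0.73 in Long-Evans, against -1.32, -2.46 and -0.76 in Han/Wistar), and Psmb4 was 0.65, 0.06 and -0.98 in Long-Evans, against -0.54, -1.25 and -0.63 in Han/Wistar.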

How the results depend on the processing

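No paired analysis was possible because the animal codes of the cycle values match no sample label, so the planned replicate block was not run. Ern1 stayed negative under every scaling of the dose trend and of the time course, on both platforms and in both strains. The other 3 genes did not keep 1 sign, and the cause of these changes was not tested. On the OpenArray the subtracted median was higher with TCDD (on average 0.62 against 0.01 in corn oil in Long-Evans, and 0.23 against -0.21 in Han/Wistar), as was the mean. Subtraction could then only lower the time course differences, so the negative sign of Ern1 there was fixed in advance. The same held for the medians in Long-Evans on the 7900HT (0.64 against 0.00, and 0.38 against 0.17 for genes with as many rows). In Han/Wistar there, both medians were lower with TCDD, and Ern1 was -2.46 and -1.66. The OpenArray median also rose from 0.04 at the lowest to 0.54 at the highest dose in Long-Evans, and from -0.13 to 0.26 in Han/Wistar. That rise favours a negative dose trend. With the group mean subtracted on the OpenArray, the dose trend of Psmb4, Pomp and Derl1 was -0.55, -0.76 and -0.83 in Long-Evans, against -0.60, -0.90 and -0.90 in Han/Wistar, and the time course difference was -0.51, -0.70 and -0.51 in Long-Evans, against -0.95, -0.92 and -0.62 in Han/Wistar. With the group median subtracted, the dose trends were -0.14, -0.52 and -0.38 in Long-Evans, against -0.40, -0.55 and -0.66 in Han/Wistar, and the differences -0.00533, -0.19 and -0.00314 in Long-Evans, against -0.37, -0.34 and -0.0353 in Han/Wistar. The strain difference in the OpenArray dose trend was -0.64 (Pomp) and -0.11 (Derl1) with the mean and -0.14 (Pomp) with the median subtracted, and that of Derl1 in the time course was -0.0113 with the median.

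On the 7900HT, subtracting the mean gave a Pomp time course difference of -0.25 in Long-Evans, a Derl1 dose trend of -0.14 in Han/Wistar, and strain differences in dose trend of 0.29 (Psmb4) and 0.32 (Pomp). Subtracting the median gave a Pomp difference of -0.0785 in Long-Evans, strain differences in dose trend of 0.29 for Psmb4 and 0.29 for Pomp, and one of -0.67 in the time course of Derl1. Subtracting the median of genes with the same number of rows gave dose trends of 0.29 for Psmb4 in Long-Evans and of 0.26 for Psmb4 and 0.24 for Pomp in Han/Wistar, a Psmb4 difference of 0.13 in Han/Wistar, and strain differences of 0.11 in the Psmb4 dose trend and -1.02 in the Derl1 time course. Pearson's r for the strain difference in dose trend was 0.0295 for Psmb4 and 0.0419 for Pomp, and with corn oil as the lowest dose the Pomp rho in Han/Wistar was 0.05. For the platforms in Long-Evans, Pomp and Derl1 had rho 0.71 and 0.69 with the mean and 0.93 and 0.26 with the median subtracted, Psmb4 and Pomp 0.41 and 0.0330 within row sets, and Derl1 0.30 at 1 µg/kg or more. In Han/Wistar Derl1 had -0.29 within row sets.

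The number of the 4 genes called on the OpenArray moved from 2 (Derl1 upward, Ern1 downward) to 1 in the Long-Evans dose trend with the median subtracted, Ern1 downward, to 3 by Pearson's r, which added Pomp upward, and to 4 with corn oil as the lowest dose (3 upward and 1 downward). With the mean subtracted it stayed 2, but with Derl1 and Ern1 both downward. In Han/Wistar it moved from 1 upward, Derl1, to 3 downward with the mean subtracted, Derl1 among them, and to 3 with corn oil as the lowest dose (2 upward and 1 downward), while with the median subtracted the 1 call was Ern1 downward. For the OpenArray time course, with the mean subtracted, it moved from 1 higher to 3 lower in Long-Evans and from 1 higher to 4 lower in Han/Wistar. Pomp in Long-Evans and Derl1 in Han/Wistar, called higher as deposited, were then called lower. In Long-Evans it moved to 2 higher when both strains were adjusted together. With only the times that have both groups, 3 TCDD and 3 corn oil groups leave too few splits there for any target to pass, so the number was 0 whatever the values. On the 7900HT it moved from 0 to 1 in the Long-Evans dose trend with the median (Derl1 downward) or the row-set median subtracted (Ern1 downward). It moved from 0 to 1 in the Long-Evans time course with the mean or the median (Ern1 lower in both). In the Han/Wistar time course it moved from 2 to 1 with joint adjustment or with only the times that have both groups. For the strain difference in dose trend within row sets it moved from 0 to 1 (Ern1, rho -0.96). For the platforms it moved from 0 to 1 in Long-Evans with the mean or the median, and in Han/Wistar from 1 to 3 with the mean, 2 with the median and 0 at 1 µg/kg or more.

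Leaving out single groups gave 0 to 3 calls for the Long-Evans and 0 to 1 for the Han/Wistar OpenArray dose trend, 0 to 2 and 0 to 1 for the OpenArray time course, and 1 to 3 for the 7900HT time course in Han/Wistar, with fewer groups in each test. Of the single genes, the strain difference in the 7900HT dose trend lay between -0.77 and 0.0286 for Psmb4 and between -0.66 and 0.14 for Pomp, above 0 only without 1000 µg/kg, and that of Derl1 in the time course lay between -0.16 and 0.93, below 0 only without corn oil at 96 h. The Derl1 rho between platforms lay between -0.23 and 0.12 in Long-Evans and between -0.15 and 0.14 in Han/Wistar.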

Other observations

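In the Han/Wistar dose series of the 7900HT, all 4 genes were lower at 0.1 µg/kg than at both neighbouring doses, and lower at 100 µg/kg than at both of its neighbours. Of all 39 targets on that platform, 27 (69.2%) had this pattern at 0.1 µg/kg and 16 (41%) at 100 µg/kg. On the OpenArray it was seen for Pomp and Psmb4 at 0.1 µg/kg, against 5 of 47 targets (10.6%), and for Ern1, Pomp and Psmb4 at 100 µg/kg, against 12 of 49 (24.5%). In Long-Evans at 0.1 µg/kg, 4 of 4 genes on the 7900HT (59.5% of 37 targets) and 3 of 4 on the OpenArray (22.4% of 49 targets; Derl1, Ern1 and Psmb4) were below both neighbouring doses. At 100 µg/kg in Long-Evans it was 1 of 4 on the 7900HT (Ern1; 41% of 39 targets) and 3 of 4 on the OpenArray (Derl1, Pomp and Psmb4; 28.6% of 49 targets). This pattern was picked after the values had been seen and was not tested. The labels give 4 rats in each of these groups.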
